A study of Mus musculus with 32 samples.

Results

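The 9 brush border digestive enzyme genes examined here are Sis, Lct, Treh, Anpep, Dpp4, Mep1a, Mep1b, Enpep and Alpi, and the data are the HNF4A binding sites at them. Peaks of the 8 HNF4A ChIP-seq libraries that shared 1 bp or more were merged into sites, and the sites lying in the body of one of these genes or within 20 kb on either side were kept. This gave 79 sites of 45552 in all, and each of the 9 genes had at least 3. The rule uses gene positions and no width or difference between conditions. A site exists only where at least 1 library has a peak, so longer lists add more sites. The calls compared below are the same ones that made the sites.

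The samples were jejunal intestinal epithelial cell (IEC) preparations from male C57BL/6J mice of 10 to 12 weeks, with no genetic alteration named in the labels. GF+HFM mice were raised germ free, and CV+HFM mice were germ-free mice given a conventional microbiota 14 days earlier. All 8 mice, 4 per condition, received a gavage of high-fat meal (HFM), an egg yolk emulsion, and were sampled 2 hours later, so meal and time point were common to both conditions. Villi were scraped from the jejunum and cells were not sorted, so the preparations were mainly villus epithelium with some crypt and mesenchymal cells, and 1 input library per condition served as the control for peak calling.

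Enterocytes finish digestion on their own surface. Their apical membrane, the brush border, carries glycosidases that split disaccharides, peptidases that trim peptides to amino acids and short peptides, and an alkaline phosphatase, most of them anchored in the membrane with the catalytic part facing the lumen. These enzymes are classical markers of the mature villus enterocyte. HNF4A is a nuclear receptor that binds DNA in enterocytes at promoters and distal elements and is known as a regulator of enterocyte differentiation and lipid handling.

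The sequence that the peaks of all calling libraries shared is printed for the leading site of each gene, meaning the site called in the most libraries and, among those, the one with the highest mean width percentile in GF+HFM (the rank of its peaks by width in their own lists), because these are the stretches that the libraries place HNF4A on in common. They are on the plus strand of mm9, limited to 200 bases and to bases outside annotated UTRs. The Sis stretch (chr3:72768055-72768254) lies in intron 3. The Lct stretch (chr1:130219851-130219938) lies in intron 1, that of Treh (chr9:44481344-44481383) holds the first coding bases, and that of Anpep (chr7:86982268-86982342) lies in intron 10. The Dpp4 stretch (chr2:62241752-62241951) lies in intron 2, those of Mep1a (chr17:43639762-43639839) and Alpi (chr1:88998182-88998335) lie directly upstream of their gene starts, and that of Enpep (chr3:129054482-129054583) lies farther upstream. Capitals mark letters that match the HNF4 motif CAAAGTCCA, on either strand, with at most 1 mismatch. The Mep1b stretch is not printed here.
Sis: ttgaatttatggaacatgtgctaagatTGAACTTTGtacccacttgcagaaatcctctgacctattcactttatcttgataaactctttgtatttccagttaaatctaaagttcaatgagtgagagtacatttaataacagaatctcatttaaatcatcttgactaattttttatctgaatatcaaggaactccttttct
Lct: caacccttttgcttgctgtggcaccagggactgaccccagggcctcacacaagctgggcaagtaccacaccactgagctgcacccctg
Treh: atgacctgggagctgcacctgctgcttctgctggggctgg
Anpep: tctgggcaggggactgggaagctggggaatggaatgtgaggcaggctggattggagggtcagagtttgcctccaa
Dpp4: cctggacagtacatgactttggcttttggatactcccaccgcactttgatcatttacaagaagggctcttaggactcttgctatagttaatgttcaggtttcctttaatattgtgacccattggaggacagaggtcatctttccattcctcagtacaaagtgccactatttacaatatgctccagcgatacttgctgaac
Mep1a: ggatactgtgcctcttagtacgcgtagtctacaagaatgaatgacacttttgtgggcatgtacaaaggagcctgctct
Enpep: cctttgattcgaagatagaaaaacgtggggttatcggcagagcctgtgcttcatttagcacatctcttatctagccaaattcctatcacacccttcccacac
Alpi: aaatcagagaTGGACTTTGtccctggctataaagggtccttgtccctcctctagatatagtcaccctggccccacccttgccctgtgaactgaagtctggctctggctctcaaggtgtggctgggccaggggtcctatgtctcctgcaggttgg

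The Alpi stretch held the motif without a mismatch, 11 bases upstream of the gene start, and the Sis stretch held it with 1 mismatch. The other 6 printed stretches held no such letters. At Mep1a the shared stretch held the motif with 1 mismatch in a part that is not printed.

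The peak lists differed in length. The GF+HFM lists held between 31061 and 36846 peaks and the CV+HFM lists between 4533 and 29345, with 9206 and 4533 in CV+HFM replicates 2 and 4. The median peak width was 298 to 464 bp in GF+HFM and 103 to 318 bp in CV+HFM, and it was smallest in the 2 shortest lists, 186 bp in CV+HFM replicate 2 and 103 bp in replicate 4. The lists give positions alone, so read depth is unknown and widths were compared as a percentile within the list of each library. Sites at the loci of 4 enterocyte markers (Fabp1, Fabp2, Apoa4 and Vil1) numbered 4 to 19 per gene, and the bases under peaks summed over them ranged from 17659 to 29388 in GF+HFM and from 1930 to 19916 in CV+HFM. Of 13 markers of other cell types 9 had a site, with at most 4 each, and their sum ranged from 3216 to 6781 in GF+HFM and from 0 to 2983 in CV+HFM. Single loci did not all part this way. In GF+HFM Fabp1 had 697 to 1217 bp, beside 1147 to 1888 bp at Chga and 503 to 1551 bp at Tff3. Fabp2, Apoa4 and Vil1 each had more than any of the 13 in every GF+HFM library. No site lay at Col3a1, Ptprc, Defa24 or Neurod1. Peaks measure binding and not transcripts, and the part of these differences between the lists in the results below was not tested.

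HNF4A sites were dense at these genes. The loci held 3 (Sis), 5 (Lct), 9 (Anpep, Mep1a and Enpep), 10 (Treh and Alpi), 11 (Mep1b) and 13 (Dpp4) sites. Their median density was 1.31 sites per 10 kb, against 0.220 over all 22380 protein-coding loci, of which 34.5% held no site. Ranked by density among all loci, Alpi stood at percentile 99.4, Treh at 98.2 and Mep1b at 96.5, while Lct stood at 74.2 and Sis at 54.9. Sis, the gene for sucrase-isomaltase, was the member nearest to the middle of the ranking. Other genes share some of the windows, among them Mcm6 and Ubxn4 at Lct, Phldb1 at Treh, Mesp2 at Anpep, Slc4a10 at Dpp4, Gpr116 at Mep1a and Alppl2, another alkaline phosphatase gene, at Alpi. Of the 79 sites 7 were nearer to the start of such a neighbour than to that of the enzyme gene, and 1 site of Alpi was nearer to the start of Akp3, an alkaline phosphatase gene outside the window.

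**Figure D1:**
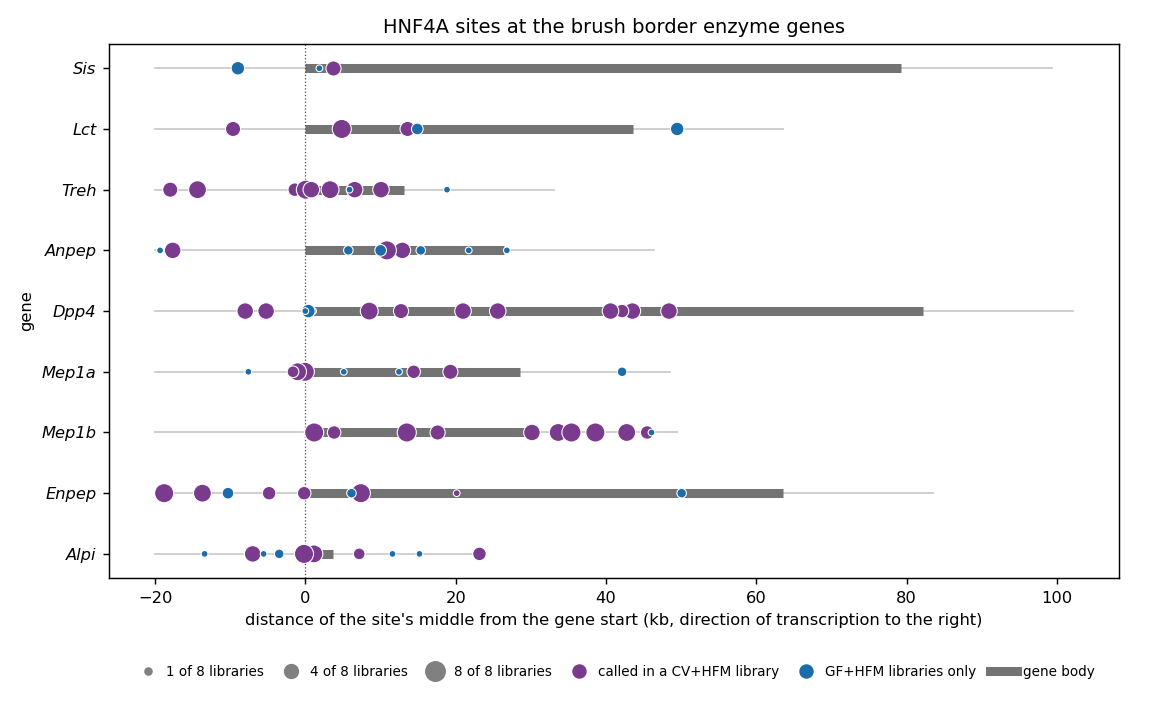
Position of the 79 sites, as the distance in kb of each site's middle from the start of its gene, with transcription running to the right. Grey bars are gene bodies, thin lines the 20 kb on either side, and circle area grows with the number of libraries that called the site. Large circles stand at the start of Treh, Mep1a and Alpi but not at that of Sis, Lct or Anpep.

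Of the 79 sites 27 lay in introns, 20 upstream, 15 downstream, 12 over an exon and 5 over a gene start. The genes with a site over their start were Treh, Dpp4, Mep1a, Enpep and Alpi, and Mep1b had one in exon 1, 597 bp from the start. These 6 genes held 11 sites within 1 kb of their own start. No site lay within 1 kb of the start of Sis, Lct or Anpep, where the nearest site began 1716, 4400 and 5479 bp away. Counting the start of any protein-coding gene, 15.2% of the 79 sites and 15.5% of all sites lay within 1 kb. Of the 79 sites 42 lay 10 kb or more from the start of their gene.

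HNF4A was called at most of these sites in every GF+HFM library, and at fewer of them in CV+HFM. The GF+HFM libraries called 65, 50, 62 and 59 of the 79 sites in replicates 1 to 4 and the CV+HFM libraries called 49, 19, 36 and 11. The 2 conditions did not overlap, the nearest libraries being GF+HFM replicate 2 and CV+HFM replicate 1, which differed by a single site. Over all sites of the genome the same libraries called 76.4%, 64.0%, 72.1% and 74.0% of all sites in GF+HFM and 60.8%, 19.2%, 43.3% and 8.97% in CV+HFM. In CV+HFM replicates 2 and 4 the share of the enzyme-gene sites called was 24.1% and 13.9%.

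**Figure D2:**
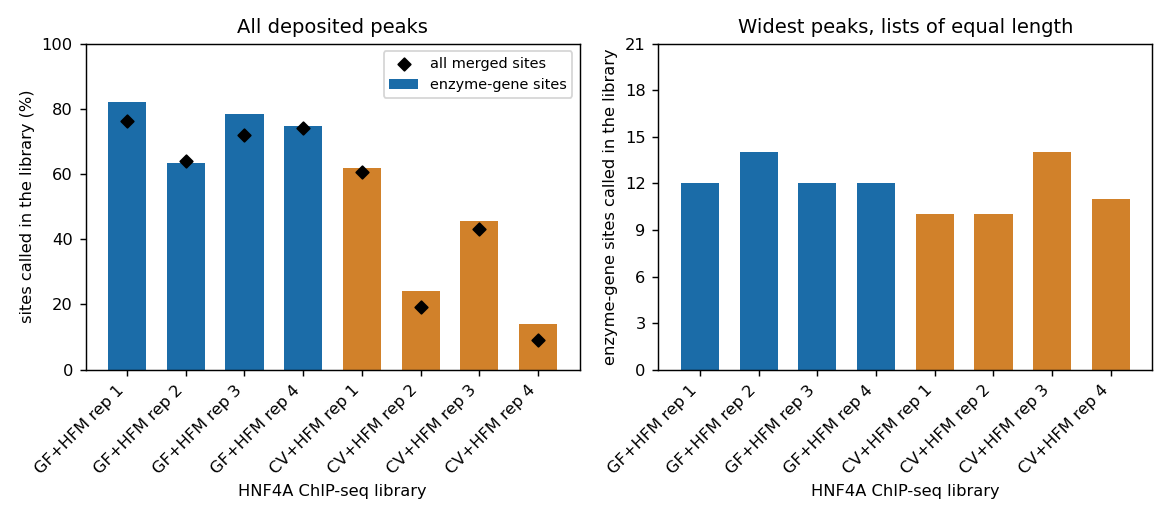
Left, the percentage of the 79 enzyme-gene sites (bars) and of all merged sites (diamonds) that each library called, with GF+HFM in blue and CV+HFM in orange. Right, the number of enzyme-gene sites called when each list was limited to its 4533 widest peaks, where the bars run from 12 to 14 in GF+HFM and from 10 to 14 in CV+HFM. On the left the diamonds differ between the conditions as the bars do.

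At single sites, 66 of the 79 (83.5%) had peaks in a greater number of GF+HFM lists than CV+HFM lists, close to the background of 86.5% over all sites. Another 12 were called equally often. Peaks from GF+HFM lists alone made 28 of the sites (35.4%, against 35.6% of all sites). A single site, in exon 4 of Enpep (chr3:129015427-129015592), was called more often in CV+HFM, by 1 peak of 166 bp in replicate 3. All 8 libraries called 11 sites (13.9%, against 7.56% of all sites), all 4 GF+HFM libraries called 43 (54.4% against 50.6%), and 17 came from 1 library (21.5% against 21.6%). The sites called in all 8 libraries belonged to 7 of the 9 genes: 4 at Mep1b, 2 at Enpep and 1 each at Lct, Treh, Anpep, Mep1a and Alpi. Sis and Dpp4 had none.

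When each list was limited to its 4533 widest peaks, the length of the shortest list, 21 sites remained at the 9 genes. The GF+HFM libraries then called 12, 14, 12 and 12 of them and the CV+HFM libraries 10, 10, 14 and 11, so the conditions overlapped. At this length 10 sites (47.6%) were called in more GF+HFM libraries, 5 (23.8%) in more CV+HFM libraries and 6 equally often. Over all sites the first share was 40.3% and the middle one 38.6%, and the difference from the genome was not tested. This setting was chosen after seeing the data.

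In all, 3 of the 79 sites had a peak from each of the 4 GF+HFM mice but from no CV+HFM mouse (3.80%, against the background of 2.79% of all sites). Fisher's exact test of 4 against 0 calls gives its smallest two-sided p, 0.0286. After Benjamini-Hochberg adjustment over the 45552 sites the smallest adjusted p was 0.824, so no site passed, while 1269 sites including these 3 did without adjustment. No site could pass unless most sites had the smallest p, so the adjusted test cannot decide about these 3. One lies upstream of Sis (chr3:72780592-72780953), its nearer edge 8807 bp from the start, with peaks of 241, 227, 298 and 349 bp in GF+HFM replicates 1 to 4. These widths stood at percentiles 25.9 to 29.4 of their lists, so the peaks were narrow in each GF+HFM library. One lies downstream of Lct (chr1:130175252-130175599), nearest to the start of Ubxn4, with peaks of 234, 255, 303 and 336 bp at percentiles 26.7 to 35.9. The third lies over exon 1 of Dpp4 (chr2:62249661-62250140), 148 bp from the start, with peaks of 428, 306, 264 and 352 bp at percentiles 71.7, 52.5, 18.5 and 29.9. Without CV+HFM replicate 1 the number of sites with this pattern was 9, and with lists limited to equal length it was 0.

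Whether a site was called in CV+HFM went with the width of its peaks in GF+HFM. Of the 43 sites called in all 4 GF+HFM libraries, CV+HFM replicates 1 to 4 called 39, 19, 34 and 11, or 90.7%, 44.2%, 79.1% and 25.6%, and the shares of the 23049 such sites of the genome were 91.6%, 37.1%, 78.0% and 17.0%. The 18 of the 43 in the widest quartile by GF+HFM width percentile were called 18, 17, 18 and 10 times, or 100%, 94.4%, 100% and 55.6%, where the shares over the genome were 99.7%, 74.2%, 98.3% and 44.8%. In the narrowest quartile, 8 sites, the calls were 5, 0, 2 and 0, or 62.5%, 0%, 25.0% and 0%, where the shares over the genome were 74.9%, 6.98%, 45.5% and 1.27%. These differences from the genome were not tested.

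**Figure D3:**
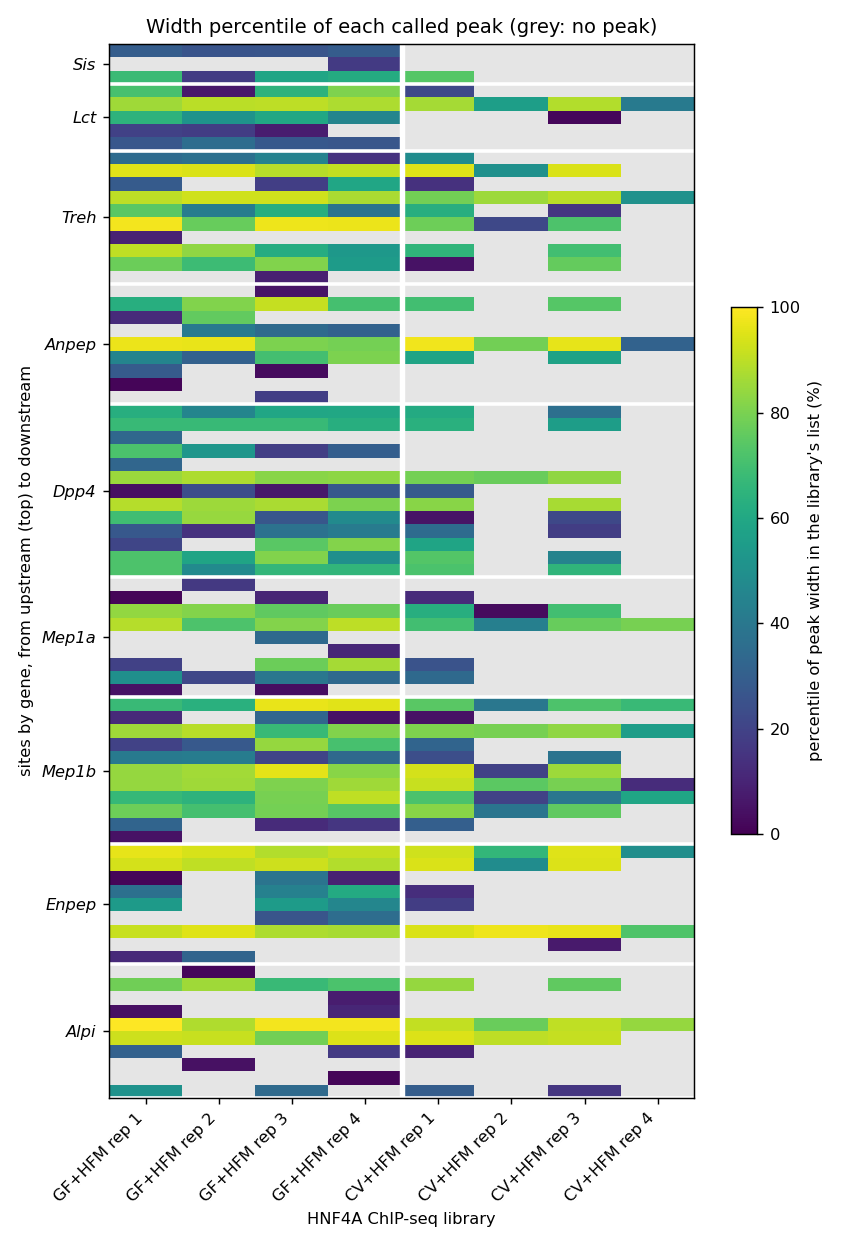
Width percentile (0 to 100, within the list of each library) of the widest peak at each of the 79 sites, in rows by gene, and in columns the 4 GF+HFM and 4 CV+HFM libraries. Grey means no peak. Bright rows, such as the sites over the starts of Treh and Alpi, reach across to CV+HFM replicate 4, while CV+HFM replicates 2 and 4 are grey in most other rows.

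Among the glycosidase genes, Sis encodes sucrase-isomaltase, which splits sucrose and starch fragments. Its leading site (chr3:72767882-72768424, intron 3) had peaks of 406, 205, 458 and 543 bp in GF+HFM replicates 1 to 4 and of 426 bp in CV+HFM replicate 1, with no peak in the other CV+HFM libraries. The width percentiles were 68.3, 17.8, 58.9 and 61.7 in GF+HFM and 73.6 in that CV+HFM library. GF+HFM replicate 2 had the narrowest of these peaks.

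Lct encodes lactase, the milk sugar enzyme. Its leading site, in intron 1 (chr1:130219625-130220495), was called in all 8 libraries, with peaks of 563, 546, 783 and 852 bp in GF+HFM and 535, 197, 469 and 88 bp in CV+HFM. As percentiles these were 85.7, 89.7, 90.0 and 87.8 in GF+HFM and 86.4, 55.9, 88.4 and 40.9 in CV+HFM, so replicates 1 and 3 of CV+HFM matched the GF+HFM range and replicates 2 and 4 stood below it.

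Treh encodes trehalase, which splits the fungal and insect sugar trehalose. Its leading site covers the gene start (chr9:44480947-44481807), with peaks of 628, 598, 856 and 843 bp in GF+HFM and 462, 282, 484 and 104 bp in CV+HFM. The percentiles were 90.0, 92.7, 92.6 and 87.4 in GF+HFM and 78.8, 85.2, 89.7 and 50.6 in CV+HFM, which overlapped in replicate 3 alone. The motif stood in this site without a mismatch 63 bases upstream of the start, outside the stretch shared by all 8 peaks. A neighbouring site in intron 1 (chr9:44481838-44482357), 522 bp from the start, had peaks from all 4 GF+HFM mice and from CV+HFM replicates 1 and 3. Its percentiles were 74.3, 42.1, 62.8 and 38.3 in GF+HFM (mean 54.4) and 62.8 and 15.7 in these CV+HFM libraries (mean 39.3).

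Among the peptidase genes, the leading site of Anpep, aminopeptidase N, which takes single amino acids from the ends of peptides, lay in intron 10 (chr7:86981828-86982697). Its peaks were 857, 740, 633 and 710 bp wide in GF+HFM and 863, 254, 620 and 75 bp in CV+HFM, and the percentiles were 96.9, 96.9, 80.4 and 79.1 against 98.0, 78.7, 96.3 and 31.4. CV+HFM replicates 1 and 3 stood at the upper end of the GF+HFM range, and replicate 4 far below it.

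Dpp4 encodes dipeptidyl peptidase 4, which releases dipeptides after proline or alanine and inactivates incretin hormones. Its leading site in intron 2 (chr2:62241409-62242178) had peaks of 554, 521, 653 and 767 bp in GF+HFM and 465, 249 and 420 bp in CV+HFM replicates 1 to 3, with none in replicate 4. The percentiles lay between 82.1 and 87.8 in GF+HFM and were 79.2, 77.3 and 83.2 in the calling CV+HFM libraries. Near the start of Dpp4 binding was called in GF+HFM libraries only, as at 35.6% of all sites. This was at the site in exon 1 given above and at 2 sites with a peak in GF+HFM replicate 1 alone. The 2 lay over the start (chr2:62250180-62250433, 254 bp) and in exon 2 (chr2:62249145-62249397, 253 bp).

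Mep1a and Mep1b encode the alpha and beta subunits of meprin, a metalloprotease of the brush border. The leading site of Mep1a covers its start (chr17:43639392-43640296), with peaks of 610, 388, 646 and 905 bp in GF+HFM and 404, 174, 379 and 201 bp in CV+HFM. The percentiles were 89.0, 72.1, 81.6 and 89.9 in GF+HFM and 69.8, 43.2, 76.8 and 79.7 in CV+HFM, so the ranges overlapped. A site 703 bp upstream (chr17:43640464-43641147) had peaks from 4 GF+HFM and 3 CV+HFM mice. Its percentiles were 83.8, 81.4, 75.6 and 77.0 in GF+HFM (mean 79.5). In CV+HFM replicates 1 to 3 they were 62.8, 3.04 and 69.6 (mean 45.2), the low value being a peak of 113 bp.

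Mep1b held 4 sites called in every library, and 7 of its 11 sites lay downstream of the gene. Its leading site (chr18:21264283-21265091) lay there, 34997 bp from the start, with peaks of 544, 497, 636 and 809 bp in GF+HFM and 616, 241, 395 and 55 bp in CV+HFM. The percentiles were 84.2, 85.9, 80.7 and 85.7 in GF+HFM and 91.6, 74.8, 79.6 and 12.8 in CV+HFM. The site in exon 1 (chr18:21229883-21231014) was called in all 8 libraries too, and its percentiles ran from 63.6 to 96.7 in GF+HFM and from 39.8 to 74.4 in CV+HFM. Its peak midpoints were among the most scattered, with an SD of 281 bp over the 8 libraries against 24.2 bp at the leading site.

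Enpep encodes glutamyl aminopeptidase, which removes acidic residues and acts on angiotensin II. Its leading site lay upstream (chr3:129053966-129054910), 18328 bp from the start, with peaks of 820, 633, 755 and 945 bp in GF+HFM and 637, 217, 579 and 102 bp in CV+HFM, at percentiles of 96.3, 94.0, 88.6 and 91.3 against 92.6, 66.1, 95.0 and 49.5. A site in intron 1 (chr3:129027836-129028689) was also called in all 8 libraries, and its mean percentile was 90.5 ± 3.77 (SD, n = 4) in GF+HFM and 90.2 ± 12.0 in CV+HFM. The site over the start (chr3:129035515-129036088) was called in 4 libraries, with peaks of 332, 434 and 439 bp in GF+HFM replicates 1, 3 and 4 and of 218 bp in CV+HFM replicate 1.

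Alpi encodes intestinal alkaline phosphatase, which removes phosphate from dietary and bacterial molecules. The site over its start (chr1:88997654-88999090) was the widest of the 79, at 1437 bp, with peaks of 1321, 526, 1221 and 1403 bp in GF+HFM and 601, 249, 492 and 230 bp in CV+HFM. The percentiles were 99.6, 88.2, 98.2 and 98.2 in GF+HFM and 90.7, 77.3, 90.2 and 84.2 in CV+HFM, with GF+HFM replicate 2 inside the CV+HFM range. The next site, over exons 4 to 7 (chr1:88996507-88997598), had a mean percentile of 89.4 ± 7.19 (SD, n = 4) in GF+HFM and of 91.9 ± 2.39 in the 3 CV+HFM libraries that called it.

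The width rank was tested at the 11 sites called in all 8 libraries, by limma after turning each library's width ranks into normal scores, over the 3445 such sites of the genome, with Benjamini-Hochberg adjustment. None of the 11 passed after adjustment, and 4 of the 3445 sites did, which is a background of 0.116%. At an unadjusted limma p under 0.05 it was 0 of the 11 and 398 of the 3445 sites. The largest differences, CV+HFM minus GF+HFM in SD units of the normal score, were -0.703 (SE 0.414) at the start of Alpi, with an adjusted p of 0.503, and 0.682 (SE 0.385) in intron 1 of Enpep, with an adjusted p of 0.494. Their 95% intervals were -1.57 to 0.169 and -0.130 to 1.49, which include differences of over 1 unit. The score was lower in CV+HFM at 8 of the 11 sites, with a median difference of -0.208 against 0.0407 over all sites tested.

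Summed over a locus, the mean bases under peaks were fewer in CV+HFM at all 9 genes, and 3 passed the test. Sis had 647, 432, 756 and 1179 bp under peaks in GF+HFM and 426, 0, 0 and 0 bp in CV+HFM, a mean of 754 ± 314 (SD, n = 4) against 106.5 ± 213. All the CV+HFM bases at Sis came from replicate 1, whose value lay just under the lowest GF+HFM value. Lct had 1813, 1483, 2270 and 2357 bp against 764, 197, 625 and 88 bp, a mean of 1981 ± 409 against 418.5 ± 327. Anpep had 2108, 2114, 3002 and 2410 bp against 1617, 254, 1279 and 75 bp, a mean of 2408.5 ± 420 against 806 ± 757. In these 3 genes no CV+HFM library reached the lowest GF+HFM library. This gives the smallest p that an exact permutation test of 4 against 4 allows, 0.0286 (two-sided). Of all loci 23.3% were lower in CV+HFM at the same p. That share is 5225 loci, and it counts the 34.5% of loci (7727) without a site, which cannot be lower. Among loci with a site it is therefore above 23.3%, and 3 of 9 genes was not shown to exceed it. After adjustment over all 22380 loci that exact p became 0.122, also the smallest of any locus. No locus could pass unless most loci reached the smallest exact p, so the adjusted test cannot decide here. Counting only peaks of at least 300 bp, Sis and Anpep did not pass (exact p of 0.257 and 0.0857), and Sis did not pass with flanks of 5 or 50 kb (exact p of 0.0857 and 0.0571). In lists of equal length none of the 3 passed, Sis having no peak in any of them.

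**Figure D4:**
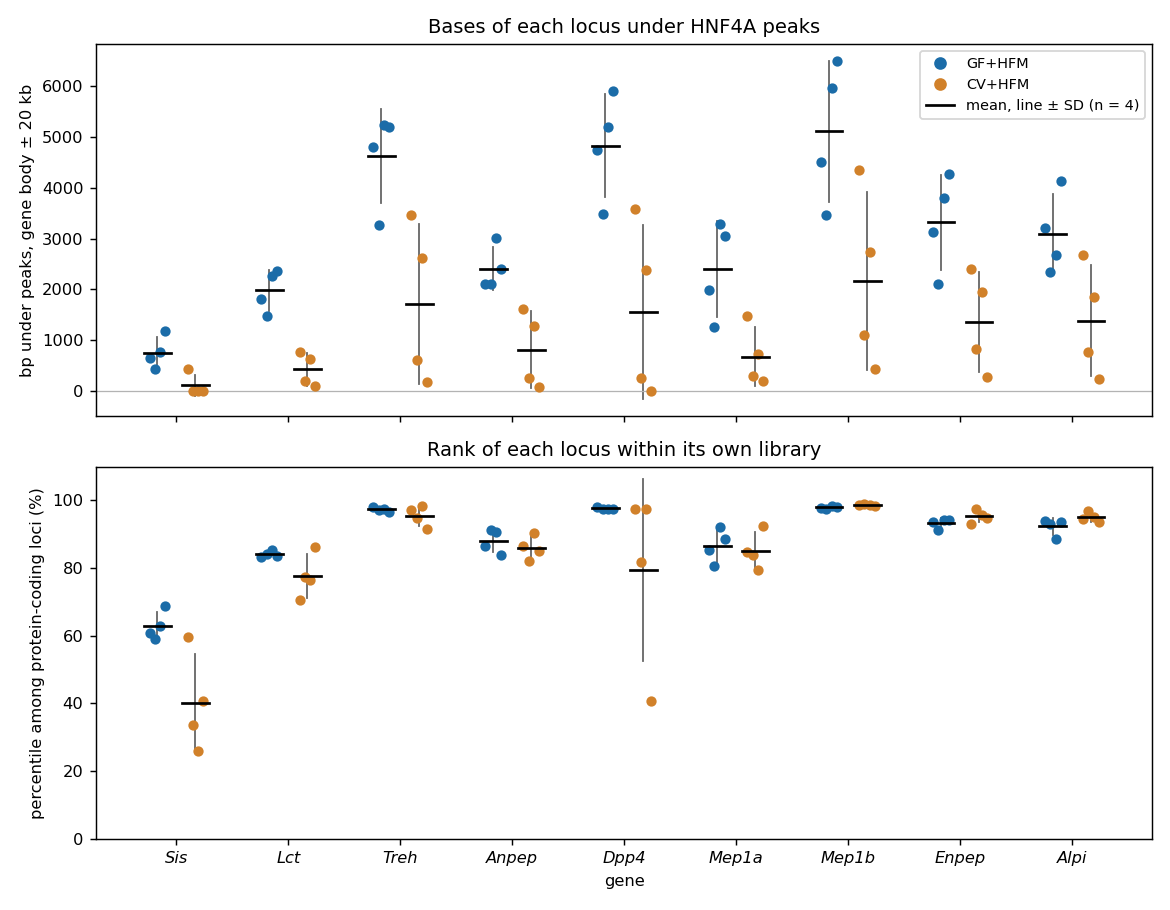
Upper panel, bases of each locus (gene body and 20 kb on either side) under HNF4A peaks in each library. Lower panel, the percentile of the locus among all protein-coding loci of the same library. Points are libraries, with GF+HFM in blue and CV+HFM in orange, black bars are means and vertical lines the SD (n = 4). The conditions part in the upper panel at Sis, Lct and Anpep, and in the lower panel they overlap at each gene.

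At the other 6 genes the conditions overlapped by 1 pair of libraries, CV+HFM replicate 1 lying above GF+HFM replicate 2, and the exact permutation p was 0.0571 at each. Treh had 4812, 3274, 5234 and 5193 bp in GF+HFM and 3459, 606, 2617 and 181 bp in CV+HFM. Dpp4 had 4750, 3483, 5204 and 5903 bp against 3574, 249, 2383 and 0 bp. Mep1a had 1991, 1256, 3295 and 3051 bp against 1480, 287, 722 and 201 bp. CV+HFM replicates 2 and 4, the short lists, held the lowest values at each of these genes. Mep1b had 4506, 3463, 5978 and 6504 bp against 4362, 1101, 2736 and 437 bp. Enpep had 3135, 2104, 3799 and 4264 bp against 2408, 818, 1950 and 267 bp. Alpi, with 3207, 2343, 2685 and 4139 bp against 2678, 763, 1842 and 230 bp, kept the largest share of its GF+HFM mean in CV+HFM, 44.6%, and Sis the smallest, 14.1%. The median share over the 9 genes was 33.5%, beside 31.7% over all loci with peaks in GF+HFM. Whole preparations were measured and read depth is unknown. Fewer cells with HNF4A on these sites, less binding per cell and the shorter CV+HFM lists as a whole therefore cannot be told apart.

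Ranked by bases under peaks against the other loci of the same library, 6 of the 9 genes differed between the condition means by at most 2.67 points. The percentile of Treh was 97.3 ± 0.662 (SD, n = 4) in GF+HFM and 95.5 ± 2.98 in CV+HFM, and that of Mep1b 97.9 ± 0.385 and 98.6 ± 0.336. Enpep stood at 93.3 ± 1.45 and 95.3 ± 1.82, Alpi at 92.4 ± 2.46 and 95.0 ± 1.33, Anpep at 88.1 ± 3.46 and 85.9 ± 3.39, and Mep1a at 86.7 ± 4.91 and 85.1 ± 5.41. Within each of these 6 loci the libraries of the 2 conditions overlapped. Lct stood at 84.1 ± 0.955 and 77.7 ± 6.38, where CV+HFM replicate 1 was lowest, at 70.6, and replicate 4 above every GF+HFM library, at 86.1. Dpp4 stood between 97.5 and 98.0 in GF+HFM and at 97.5, 81.8, 97.6 and 40.8 in CV+HFM, the last being the rank shared by all loci without a peak in that library. Sis stood at 60.8, 58.9, 62.8 and 68.8 in GF+HFM and at 59.7, 33.7, 26.0 and 40.8 in CV+HFM, where the 3 low values are again the rank of loci without a peak.

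None of the 9 genes passed the exact permutation test on this percentile in either direction, beside a background of 3.93% of loci that were lower in CV+HFM and 36.7% that were higher. The smallest p was 0.0571, at Sis (a difference of -22.8 points) and at Mep1b (0.692 points), in the exact two-sided test, and it was 0.129 after adjustment over all loci. The high share of loci with a higher percentile rests mostly on loci without any site, which share a middle rank that is larger in a shorter list. All 7727 loci without a site passed as higher by this shared rank alone, beside 8210 higher loci in all. The 36.7% is therefore not a background for genes with a site. The 3.93% counts the same 7727 loci, which cannot be lower, so among loci with a site the lower share is above 3.93%. The median difference was -1.85 points over the 9 genes and -4.08 over all loci with a site. Per Mb of bases under peaks in the whole list, the 9 loci held 1977, 1886, 2010 and 1903 bp in GF+HFM and 1949, 2270, 2172 and 2373 bp in CV+HFM.

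The sequence under the sites was searched for the HNF4 motif CAAAGTCCA and, for HNF1, another regulator of enterocyte genes, for the half-site GTTAAT, on both strands and each on its own. In the 200 bp at the middle of each site, 18 of the 79 sites (22.8%) held the HNF4 motif with at most 1 mismatch, and so did 29.0% of the 45325 sites searched in the genome. Treh and Mep1b had 4 such sites each, Anpep 3, Dpp4 and Alpi 2, Sis, Mep1a and Enpep 1, and Lct none. Of the 11 sites called in all 8 libraries 2 held it, against 38.6% of such sites in the genome. The half-site GTTAAT stood in 6 of the 79 windows (7.59%, against 6.39%).

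Without a mismatch the HNF4 motif was in none of the 79 windows, against 4.90% of all windows. Over the whole width of the sites it occurred without a mismatch 4 times, at distances of 128 to 307 bp from the middle of the site. These were the sites over the starts of Alpi and Treh, the site 17245 bp upstream of Anpep (chr7:87010341-87011183) and a site in intron 7 of Mep1a (chr17:43624807-43625908). With at most 1 mismatch 32 of the 79 sites held the motif somewhere in their width, and in 17 it lay in the stretch shared by all calling libraries. For the whole width and the shared stretch no share over all sites is given, with or without a mismatch. A wider site holds more letters, and the median width was 495 bp at the 79 sites and 437 bp over all sites. These counts therefore describe the 79 sites alone. A match is a description of the letters, and a window without one says only that these letters are not in it.

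Other enzymes of the brush border were listed for comparison: Mgam, Mme, Naaladl1, Ace, Xpnpep2, Akp3, Tmprss15, Ggt1, Folh1 and Enpp3. These 10 loci held 81 sites, with a median of 7 per gene beside 9 at the members, and Mme, the endopeptidase neprilysin, and Mgam, maltase-glucoamylase, had most, 21 and 17. Tmprss15, the activator of trypsinogen, and Folh1, a folate hydrolase, had none. Mean bases under peaks were lower in CV+HFM at 8 of the 10, and 4 passed the exact permutation test (Naaladl1, Ace, Xpnpep2 and Ggt1). On the percentile none was lower past the threshold, and the 2 that were higher past it are the 2 loci without a site. In this list 3 of the 81 sites (3.70%) were called in all 8 libraries, beside 11 of 79 at the 9 genes, and 3 of the 81 had a peak from each GF+HFM mouse but from no CV+HFM mouse. The lists are not separate, since 4 sites of Alpi also lie within 20 kb of Akp3 and are counted in both.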

How the data were processed

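HNF4A ChIP-seq of jejunal IECs was compared between 4 GF+HFM and 4 CV+HFM mice, grouped by the sample titles. The authors sequenced 50 bp single-end reads, aligned them with Bowtie2 to mm9, and called peaks per mouse with MACS2 2.1.1.20160309 against 1 input library per condition, at a false discovery rate of 0.05 and a bandwidth of 300 bp. The deposited lists hold peak positions in bp and no column of strength, so a value here is a position, a width or a call. RNA-seq, H3K27ac and the conditions without HFM were not used here.

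Peaks sharing 1 bp were merged into sites. Gene models were GENCODE M1 and sequences NCBIM37, both mm9, and no peak ran past a chromosome end. The width percentile is the mid-rank of a peak in its list, from the widest peak of a library at a site. Loci were all 22380 protein-coding genes with 20 kb on either side, compared by exact permutation over the 70 relabellings. Calls were compared by Fisher's exact test, and width ranks by limma (in R), with Benjamini-Hochberg adjustment over all sites or loci. The test steps were checked on simulated data. The sites given in full were the leading site of each gene, sites within 1 kb of its start and those called in all libraries of 1 condition and none of the other. The members and gene lists were chosen with earlier results of these data known, and 1 gene of the comparison list is not reported here. Alternatives covered merging by 200 bp windows, peaks of at least 300 bp, flanks of 5 and 50 kb, a call needing 50% of the site, the number of peaks, log2 width, each library left out and the replicate number as a block. Libraries with the same replicate number did not deviate together, with correlations of -0.0776 to 0.138 over the 3445 sites called in all 8. Each library is from 1 mouse, so p-values measure the spread between mice together with that between library preparations.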

Additional observations from a re-analysis of the deposited data

Results flagged for a closer look

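Of 36 groups of 4 values (bases under peaks and percentile of the 9 loci in each condition), 2 held a library far from the other three by Dixon's criterion, and chance flags about 1 in 20 such groups. In the bases under peaks at Sis in CV+HFM, replicate 1 had 426 bp and the other libraries 0. In the percentile of Dpp4 in GF+HFM, replicate 1 stood highest, at 98.0, above a range of 97.5 to 97.6 in the others, a gap of under 1 point.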

How the results depend on the processing

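The main results were recomputed under each alternative. Limited to the 4533 widest peaks of each list, an alternative chosen after seeing the data, the sites at the members numbered 21, those with more GF+HFM than CV+HFM peaks 10, those with a peak in every GF+HFM and no CV+HFM list 0, and the loci past p in covered bp 1 (Treh, exact p 0.0286, with Sis, Lct and Anpep lost at 1.0, 0.343 and 0.686). Covered bp also lost Sis with peaks of at least 300 bp (0.257) and flanks of 5 kb (0.0857) or 50 kb (0.0571), lost Anpep with peaks of at least 300 bp (0.0857), and gained Mep1a there and Dpp4 at 50 kb (0.0286 each, lower). Sites with a peak in every GF+HFM and no CV+HFM list numbered 1 of 54 with flanks of 5 kb and 5 with 50% of the site covered. They numbered 3 to 9 with single libraries left out, the 9 being without CV+HFM replicate 1. Sites with the HNF4 motif numbered 11 of the 54 sites kept with flanks of 5 kb, and 0 of the 79 as exact matches. Loci past p in the percentile numbered 1 by number of peaks (Sis, lower), 1 with flanks of 5 kb (Dpp4, lower) and 2 with flanks of 50 kb (Anpep, lower, and Mep1b, higher). Beyond those given above, shares over all sites or loci are not given for these alternatives, so the counts describe the members alone. The cause of these changes was not tested.

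Percentile differences, not past p in either setting, changed sign at Treh by number of peaks (0.330), at Mep1b, Enpep and Alpi with peaks of at least 300 bp (-24.7, -9.44 and -9.28), and at Sis, Lct, Anpep, Enpep and Alpi with equal lists (0.160, 11.5, 12.5, -0.422 and -0.368). With single libraries left out only that of Mep1a did (-3.95 to 0.384), without GF+HFM replicate 3 (0.320) or CV+HFM replicate 3 (0.384). Width differences changed sign on log2 width, where the median of all sites was -1.20, at Anpep (-1.20), Mep1b exon 6 (-1.07) and Enpep intron 1 (-0.803). With single libraries left out they ranged across 0 at Anpep (-0.0686 to 0.593), Mep1a (-0.493 to 0.0435), Mep1b exon 1 (-0.700 to 0.0421) and the leading Mep1b site (-0.271 to 0.311).

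With the replicate block limma called 0 of the 11 sites, as without it, and the libraries share no more than a number. For the locus tests neither a block (smallest exact p 0.125) nor 4 against 3 libraries (0.0571) can pass, so no count is given, and the covered bp at Sis, Lct and Anpep stayed lower in CV+HFM with each library left out. Read depth, not given by position lists, limits every absence of a call in CV+HFM replicates 2 and 4.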
